A study of Mus musculus with 18 samples.

Results

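The proteasome genes of RAW264.7 cells, a mouse macrophage line, were followed through activation by lipopolysaccharide (LPS) and block of the mTOR kinase. Genes were taken from the table of raw counts if their symbol began with Psma, Psmb, Psmc, Psmd, Psme, Psmf or Psmg, leaving out the immunoproteasome genes Psmb8, Psmb9 and Psmb10. The rule found 46 of 11243 genes, of which 8 encode alpha subunits (Psma1 to Psma8) and 7 encode beta subunits (Psmb1 to Psmb7) of the core particle. Of the regulatory particle there were 6 ATPases of the base (Psmc1 to Psmc6) and 11 other subunits (Psmd1 to Psmd4, Psmd6 to Psmd8 and Psmd11 to Psmd14). The PA28 activators had 4 genes (Psme1, Psme2, Psme2b and Psme3), the assembly factors had 7 (Psmd5, Psmd9, Psmd10 and Psmg1 to Psmg4), and Psme4 (the activator PA200) and Psmf1 (the regulator PI31) made a pair of their own. The last gene, Psmc3ip, encodes a meiotic recombination factor named for its binding to the ATPase Psmc3. It is not a subunit, and it was kept in the counts because the rule takes it.

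The cells came from 3 independent experiments and were left on vehicle (control), given 500 ng/mL LPS for 6 h, or given the mTOR inhibitor torin1 at 100 nM for 15 min and then LPS. Total mRNA and mRNA of heavy polysomes, the fraction in which an mRNA carries many ribosomes, were sequenced from each lysate, so that 9 lysates gave 18 libraries. None of the 18 libraries had torin1 without LPS, so torin1 below always stands for torin1 with LPS. All groups are of the same cell line, which proliferates in culture and is not a primary macrophage. All 9 macrophage markers checked were in the table, with summed levels of 10710 to 14500 CPM (counts scaled to a fixed library total) in total mRNA, whereas 0 of 9 markers of T cells, B cells and fibroblasts were. The sum hides a wide range, from Mrc1 at 0.486 to 7.534 CPM to Lyz2 at up to 8002 CPM. Of 4 LPS response genes checked, 3 were in the table (Tnf, Il1b and Ptgs2) and Nos2 was not. A gene with 0 counts in any library is not in the table.

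The proteasome is the main protease for proteins tagged with ubiquitin in the cytosol and nucleus. Its core particle is a barrel of alpha rings, which form the gate, and beta rings, which carry the active sites. The regulatory particle binds the ubiquitin chain, and its ATPases unfold the protein and push it into the core. PA28 activators open the core without ATP, and assembly factors hold subunits while the rings form and then leave. In macrophages the peptides made by the proteasome are loaded on class I major histocompatibility molecules.

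All members were far above the low end of the table, with at least 167 counts in every library, against library totals of 27800983 to 47725557. They took 0.714% ± 0.047 of the counts of total mRNA in control cells, 0.759% ± 0.045 after LPS and 0.659% ± 0.024 after both agents (SD over 3 experiments). In polysome-associated mRNA the shares were 0.766% ± 0.048, 0.844% ± 0.050 and 0.757% ± 0.054, in the same order. The levels below are not these shares but CPM scaled by TMM factors, which hold the typical gene steady between libraries. In total mRNA the factors were 1.184, 1.154 and 1.16 in control and 0.876, 0.908 and 0.929 with LPS. The fold changes with LPS below are therefore more positive than those of the shares. In experiment 2 the share in total mRNA was 0.768% in control and 0.754% with LPS. A change in the RNA content or number of cells cannot be told apart from a change in these levels. Per kilobase of exon, the members' median level in total mRNA of control cells was 43.4 FPKM, against 7.01 FPKM over all genes with a length. Within the members it was lowest for the assembly factor Psmd9, with 3.72 FPKM, and highest for the core subunit Psmb2, with 135.6 FPKM. The class medians were 67.6 FPKM for alpha subunits, 52.8 for beta subunits, 70.8 for ATPases, 42.8 for the other regulatory subunits, 39.8 for PA28 and 15.2 for assembly factors. The pair of Psme4 and Psmf1 had a median of 12.35 FPKM. Assembly factor mRNAs were thus the least abundant per length of the classes other than this pair. Psmd9 has 7248 bases of exon for 666 coding bases, and FPKM divides by the former.

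Some counts may be shared between genes. The transcripts of Psme2 and Psme2b are identical at 99.4% of 794 aligned positions, so reads could be split between them and their values are not independent. Psmb5, Psmb6 and Psmb7 have pseudogenes named after them. Of the 46 genes, 21 are overlapped by another annotated gene, 10 on the same strand and 16 on the other strand, and how reads in such overlaps were assigned was not stated in the text of the methods.

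The mRNAs of nearly the whole particle were higher after LPS. In total mRNA, 36 of the 46 genes (78.3%) were higher with LPS than in control and 4 were lower (edgeR's quasi-likelihood test, FDR 0.25 over all genes). Over all 11243 genes tested, 32.2% were higher and 34.3% were lower at the same threshold. The median log2 fold change of the members was 0.53, 0.29 and 0.32 in the 3 experiments, and 36 of them were higher in every experiment, as were 33.1% of all genes. Fitted over the experiments the members' median was 0.39, against −0.02 over all genes. The size of the change differed by class. All 7 beta subunits, all 6 ATPases, all 11 other regulatory subunits and all 4 PA28 genes rose, and 6 of the 8 alpha subunits did. Among the assembly factors 1 of 7 rose and 3 fell.

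**Figure D1:**
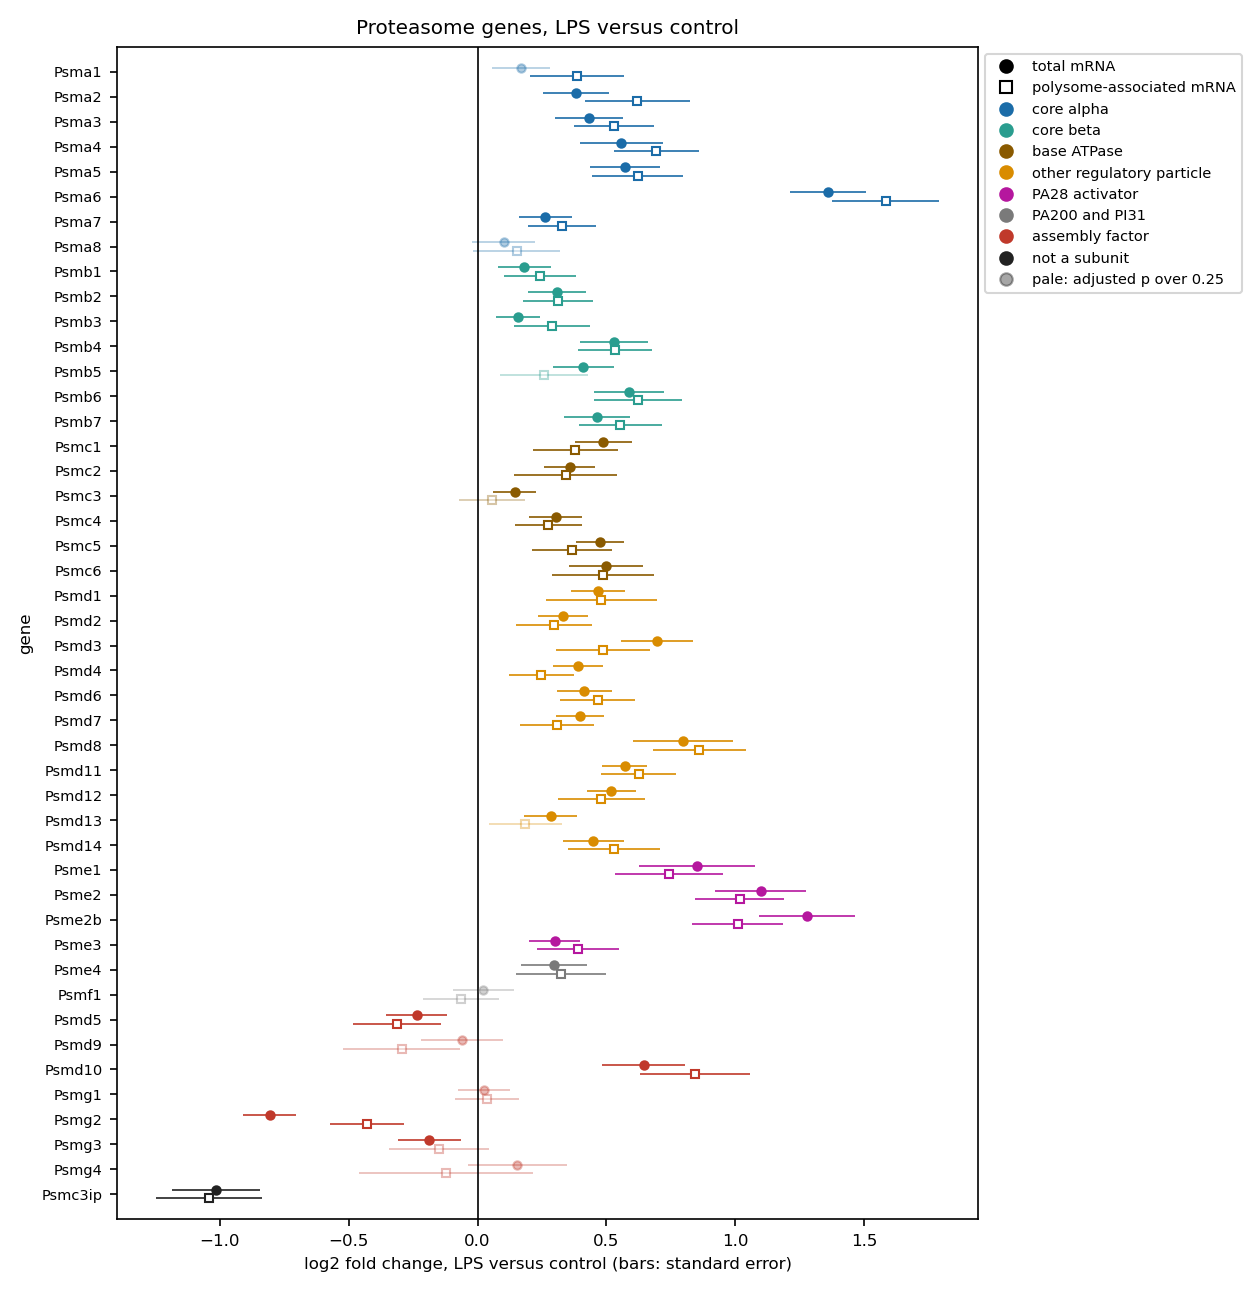
Log2 fold change between LPS and control (horizontal axis) for each of the 46 genes (vertical axis), in total mRNA (filled circles) and polysome-associated mRNA (open squares). Bars are standard errors, colours are classes and pale symbols did not pass the FDR of 0.25. Core and regulatory subunits lie to the right of 0, Psma6, Psme2b and Psme2 lie farthest right, and most assembly factors lie at or left of 0.

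The core subunit with the largest rise was Psma6, a subunit of the alpha ring. It had 144, 169.8 and 146 CPM in total mRNA of control cells in experiments 1 to 3. After LPS it had 489.7, 335 and 354 CPM, and after torin1 and LPS 292, 300.5 and 287 CPM. Every LPS library lay above every library of the other groups. How often groups fail to overlap was not counted over all genes, for this gene or for those below. The log2 fold change with LPS was 1.36 (standard error 0.147, edgeR adjusted p = 4.48e-05). For the other alpha subunits it lay between 0.10 for Psma8, a subunit of testis proteasomes, and 0.57 for Psma5. Psma8 did not pass the threshold, nor did Psma1 (0.17, edgeR adjusted p = 0.254, and 0.203 with the experiment as a block).

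The 3 constitutive active sites of the core lie in Psmb6 (caspase-like), Psmb7 (trypsin-like) and Psmb5 (chymotrypsin-like). Psmb6 had 194, 248 and 196 CPM in control and 325, 359.8 and 274 CPM in LPS-treated cells, a log2 fold change of 0.59 (standard error 0.137, edgeR adjusted p = 0.00551). Psmb7 had 148, 173 and 143 CPM in control and 249.7, 202 and 188 CPM in LPS-treated cells, a change of 0.46 (standard error 0.127, edgeR adjusted p = 0.0129). Psmb5 had 30.4, 40.8 and 37.7 CPM in control and 47.5, 51.7 and 45.6 CPM in LPS-treated cells, a change of 0.41 (standard error 0.119, edgeR adjusted p = 0.0167). All 3 were higher with LPS in each experiment, as were 33.1% of all genes. For none of these 3 genes did the control and LPS values overlap, which is likewise not set against a share of all genes. Psmb3 had the smallest rise of the beta subunits, 0.16 (standard error 0.085, edgeR adjusted p = 0.155).

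In the regulatory particle, Psmd8, a lid subunit, rose most. It had 210.3, 291 and 181 CPM in control, 447, 429 and 308 CPM in LPS-treated cells, and 434, 504 and 403 CPM when torin1 was added. The log2 fold change with LPS was 0.80 (standard error 0.194, edgeR adjusted p = 0.00689), and the lowest LPS library lay above the highest control library. Psmc6, the ATPase with the largest change, had 155, 159.8 and 147 CPM in control and 273, 198 and 180.3 CPM in LPS-treated cells. Its change of 0.50 (standard error 0.143, edgeR adjusted p = 0.0161) was 0.32 without the first experiment, in which its LPS value was highest (edgeR adjusted p = 0.0728). Psma4 behaved alike, with a change of 0.56 (standard error 0.160, edgeR adjusted p = 0.0158) that was 0.37 without the first experiment (edgeR adjusted p = 0.135). Psmd12, a lid subunit, had 141, 151 and 140.0 CPM in control and 223, 208 and 189 CPM in LPS-treated cells, and rose in each experiment (0.52, standard error 0.0936, edgeR adjusted p = 0.00120).

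PA28 had the largest rise of the classes. Its median log2 fold change in total mRNA was 0.93 ± 0.18 (SD, n = 3 experiments), against 0.40 ± 0.24 for alpha subunits, 0.38 ± 0.23 for beta subunits, 0.35 ± 0.16 for ATPases, 0.43 ± 0.09 for the other regulatory subunits and −0.15 ± 0.07 for assembly factors. In each of the 3 experiments the PA28 median was the highest and that of the assembly factors the lowest of the classes. Without the first experiment the medians of the alpha and beta subunits were 0.26 and 0.25. Psme1 and Psme2 encode the alpha and beta chains of the cytosolic PA28 ring, and interferon-gamma is known to induce them. Psme2 had 69.9, 107.3 and 77.3 CPM in control and 203, 183 and 159 CPM in LPS-treated cells (log2 fold change 1.10, standard error 0.178, edgeR adjusted p = 0.000632). Psme2b, which may share reads with Psme2, had 22.1, 33.6 and 23.2 CPM in control and 67.1, 66.2 and 58.2 CPM in LPS-treated cells, a change of 1.28 (standard error 0.186, edgeR adjusted p = 0.000320). Psme2b is also overlapped by 2 annotated genes on its own strand. The counts and medians of PA28 take in both Psme2 and Psme2b, whose values are not independent. Psme1 had 61.1, 71.0 and 61.5 CPM in control and 103, 156 and 90.1 CPM in LPS-treated cells, a change of 0.85 (standard error 0.225, edgeR adjusted p = 0.0105). The LPS values of Psme1 were spread more than those of Psme2, but none of them reached down to the control values. Psme3, which forms the nuclear PA28 gamma ring, changed less, from 204.2, 203.5 and 207.6 CPM to 256.5, 241 and 259.5 CPM (0.30, standard error 0.0982, edgeR adjusted p = 0.0296). PA200 (Psme4) rose by 0.30 (edgeR adjusted p = 0.0838), and PI31 (Psmf1) had a change of 0.02 (standard error 0.119, edgeR adjusted p = 0.894).

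The assembly factors differed from one another. Psmg2, which pairs with Psmg1 as a chaperone of the alpha ring, fell from 27.1, 24.8 and 27.5 CPM in control cells to 14.9, 15.9 and 14.6 CPM with LPS (log2 fold change −0.81, standard error 0.102, edgeR adjusted p = 0.000121). Its partner Psmg1 had 34.5, 40.3 and 36.2 CPM in control and 36.04, 36.5 and 40.4 CPM in LPS-treated cells, values that overlapped (0.02, standard error 0.0998, edgeR adjusted p = 0.861). One gene of the chaperone pair thus fell in each experiment and the other had no detectable change. Chosen after their values were seen, the other assembly factors past the threshold were Psmd10 (gankyrin), a chaperone of the base, which rose by 0.64 (standard error 0.161, edgeR adjusted p = 0.00777), and Psmd5 and Psmg3. Psmd5 changed by −0.24 (edgeR adjusted p = 0.128) and Psmg3 by −0.19 (edgeR adjusted p = 0.237), and each of them was lower in only some of the experiments. Neither passed at an FDR of 0.05. The fourth lower member was Psmc3ip, the gene that is not a subunit, with 18.9, 16.5 and 18.2 CPM in control and 6.79, 10.8 and 8.86 CPM in LPS-treated cells.

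In polysome-associated mRNA PA28 again had the highest and the assembly factors the lowest class median. There, 34 of 46 members were higher with LPS and 3 were lower, against 26.4% and 28.7% of all genes. The class medians were 0.85 ± 0.23 for PA28, 0.57 ± 0.30 for alpha subunits, 0.41 ± 0.12 for beta subunits, 0.35 ± 0.22 for ATPases, 0.43 ± 0.15 for other regulatory subunits and −0.16 ± 0.15 for assembly factors (SD, n = 3), the last of which was −0.079 without the third experiment. Psma6 again had the largest change, from 171, 201 and 175 CPM to 688, 423 and 526 CPM (1.58, standard error 0.207, edgeR adjusted p = 0.000251). Psmd8 rose by 0.86 (edgeR adjusted p = 0.00406), Psme2 by 1.02 (edgeR adjusted p = 0.00132) and Psmb6 by 0.62 (edgeR adjusted p = 0.0181). Psmb5 had 63.2, 52.3 and 53.7 CPM in control and 77.7, 64.3 and 60.3 CPM in LPS-treated cells. These values overlapped and the change of 0.26 did not pass (edgeR adjusted p = 0.277, and 0.202 with the experiment as a block). The number of genes higher with LPS was 15 without the first and 16 without the third experiment, when 16.7% and 18.2% of all genes passed with higher values. Psmc6, Psmd12 and Psme3 were among the genes that did not pass without either of these experiments, while Psma6, Psmb6, Psmd8 and all of Psme1, Psme2 and Psme2b did.

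Torin1 given ahead of LPS was associated with lower levels of most of these mRNAs than LPS alone. The LPS libraries enter this comparison and the one above, so the values of each are given side by side and their opposite signs are not independent. In total mRNA 34 of 46 members were lower with torin1 and 2 were higher, against 26.4% lower and 27.3% higher of all genes. The median change was −0.36, −0.31 and −0.27 in the 3 experiments, and 36 members were lower in each of the 3 experiments, as were 32.1% of all genes. Fitted over the experiments the members' median was −0.35, against 0.0012 over all genes. All 8 alpha subunits and all 6 ATPases fell, and so did 6 of 7 beta subunits and 8 of the 11 other regulatory subunits. Of the assembly factors 3 fell and 1 rose, and of PA28 only Psme3 fell. With the experiment as a block 38 members were lower and 3 were higher, against 31.4% and 32.6% of all genes, and 3 of 4 PA28 genes were lower.

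**Figure D2:**
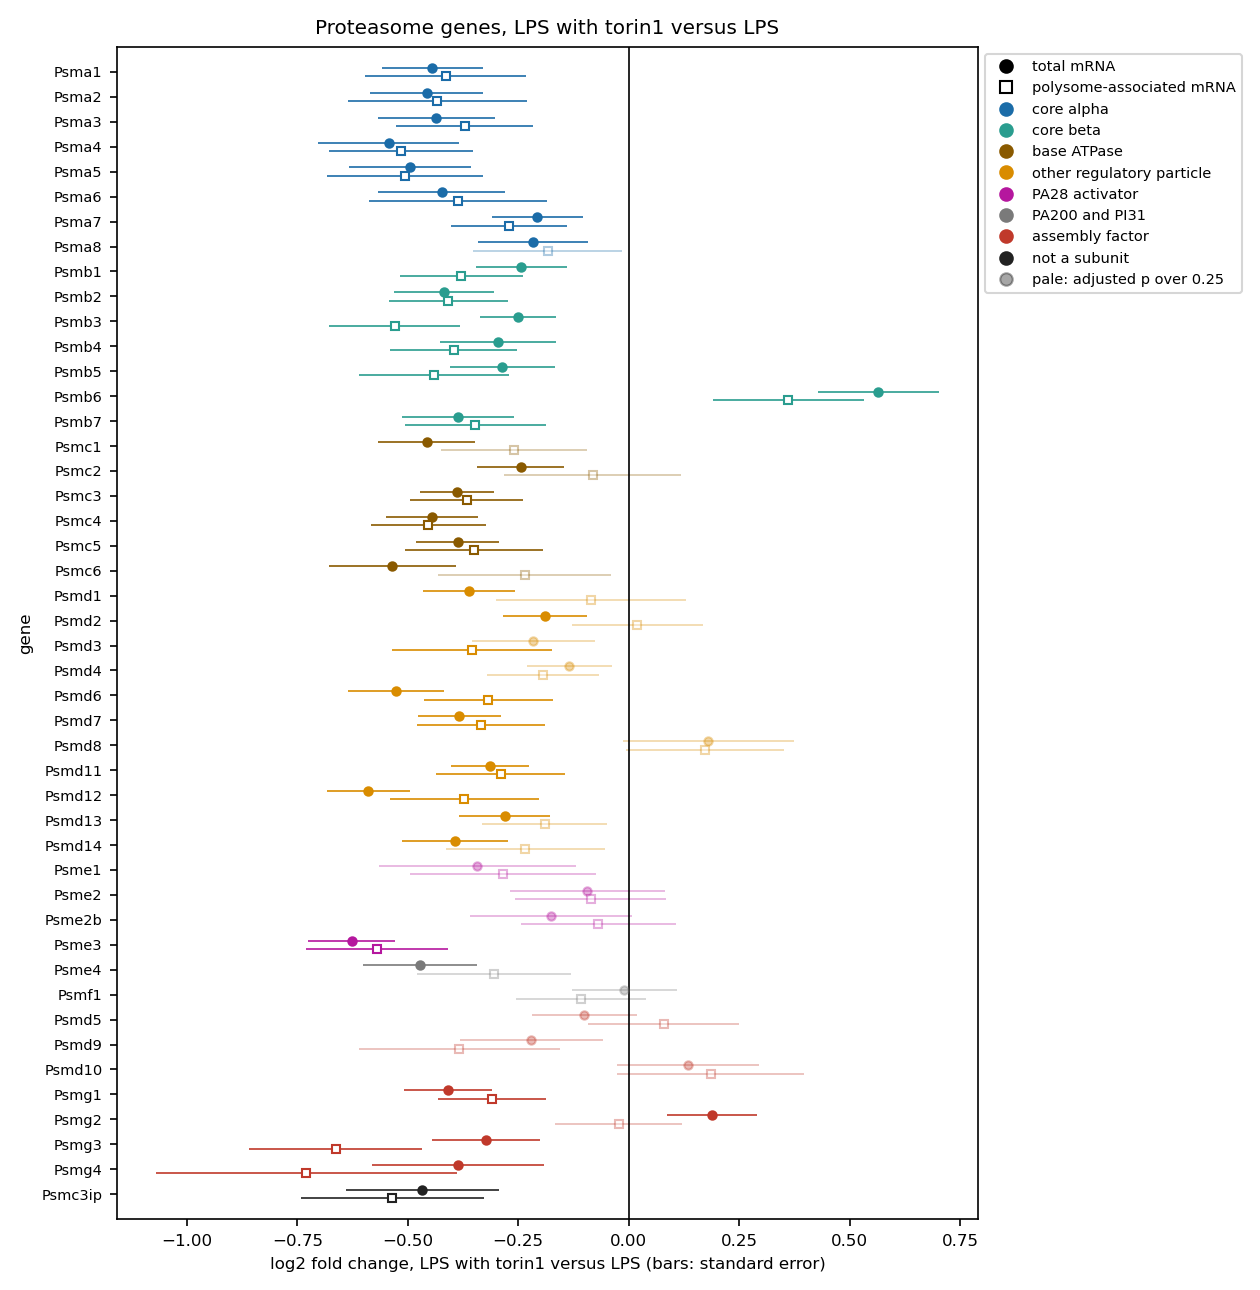
Log2 fold change between LPS with torin1 and LPS alone (horizontal axis) for each of the 46 genes (vertical axis), with the symbols and bars of the plot for LPS. Most genes lie between −0.6 and −0.2, Psmb6 lies farthest to the right of 0, and Psmd8, Psmd10 and Psme2 have bars that reach close to or across 0.

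Psma4 had the largest fall of the alpha subunits. It had 275, 216 and 179 CPM in total mRNA with LPS and 154, 168 and 137 CPM with LPS and torin1, a log2 fold change of −0.54 (standard error 0.160, edgeR adjusted p = 0.0283). Control cells had 146, 172 and 136.4 CPM, so the torin1 values lay within the range of those of control. Psmc6 had 153, 143 and 154 CPM with torin1, below every LPS library (−0.53, standard error 0.144, edgeR adjusted p = 0.0192), and without the first experiment its change was −0.35 (edgeR adjusted p = 0.0800). Psmd12 had 137, 140.2 and 134.5 CPM with torin1, below every LPS library (−0.59, standard error 0.0938, edgeR adjusted p = 0.00164). For Psmb7 the log2 fold change was −0.39 (standard error 0.127, edgeR adjusted p = 0.0441) and −0.24 without the first experiment (edgeR adjusted p = 0.247). For Psma6 it was −0.42 (standard error 0.144, edgeR adjusted p = 0.0496), or −0.23 without the first experiment (edgeR adjusted p = 0.226). Its torin1 libraries stayed well above the control libraries.

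Psme3 had the largest fall of all members. It had 256.5, 241 and 259.5 CPM with LPS and 177, 145 and 168 CPM with torin1, which is also below the control libraries (−0.63, standard error 0.0986, edgeR adjusted p = 0.00156). The genes of the cytosolic PA28 ring changed less. Psme2 had 164, 200.4 and 147 CPM with torin1, which overlapped its LPS values (−0.09, standard error 0.176, edgeR adjusted p = 0.725), and the sign turned to 0.02 without the first experiment. Psme1 had 81.8, 120.4 and 73.1 CPM with torin1, lower than with LPS within each experiment though the groups overlapped (−0.34, standard error 0.223, edgeR adjusted p = 0.276). With the experiment as a block the adjusted p of Psme1 was 0.0382 and that of Psme2b, whose change was −0.18, was 0.200. Both also passed without the second experiment, with changes of −0.32 for Psme1 and −0.34 for Psme2b (edgeR adjusted p = 0.119 and 0.0877), while Psme2b changed by −0.056 without the first (edgeR adjusted p = 0.881). A difference of Psme2 between torin1 and LPS was not detectable with this spread, and the genes of one family are not shown to differ.

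Among the assembly factors, Psmg1 fell with torin1 from 36.04, 36.5 and 40.4 CPM to 28, 30.1 and 27 CPM (−0.41, standard error 0.100, edgeR adjusted p = 0.0129). Its values with torin1 lay below those of both other groups. Psmg2 had 16.8, 16.97 and 17.98 CPM, a little above its LPS values of 14.6 to 15.9 CPM and far below control (0.19, standard error 0.102, edgeR adjusted p = 0.191). That call of Psmg2 was lost without the first or the third experiment (edgeR adjusted p = 0.347 and 0.593).

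Psmb6 went the other way from most of the particle. With LPS and torin1 it had 454, 517 and 446 CPM in total mRNA, above all LPS libraries (274 to 359.8 CPM) and all control libraries (194 to 248 CPM). The log2 fold change between torin1 and LPS was 0.57 (standard error 0.137, edgeR adjusted p = 0.0122), while it was −0.29 for Psmb5 (standard error 0.119, edgeR adjusted p = 0.0969) and −0.39 for Psmb7. Of the 3 active-site subunits, torin1 thus left 2 lower and 1 higher than LPS alone. Psmd8 had a change of 0.18 (standard error 0.193, edgeR adjusted p = 0.520, and 0.207 with the block), and Psmd10 one of 0.13 (edgeR adjusted p = 0.566). Psmd3 (−0.22) and Psmd4 (−0.13) did not pass either (edgeR adjusted p = 0.270 and 0.329), but did with the block (0.245 and 0.194). Psmb6 has no annotated gene overlapping it, but 2 pseudogenes carry its name.

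**Figure D3:**
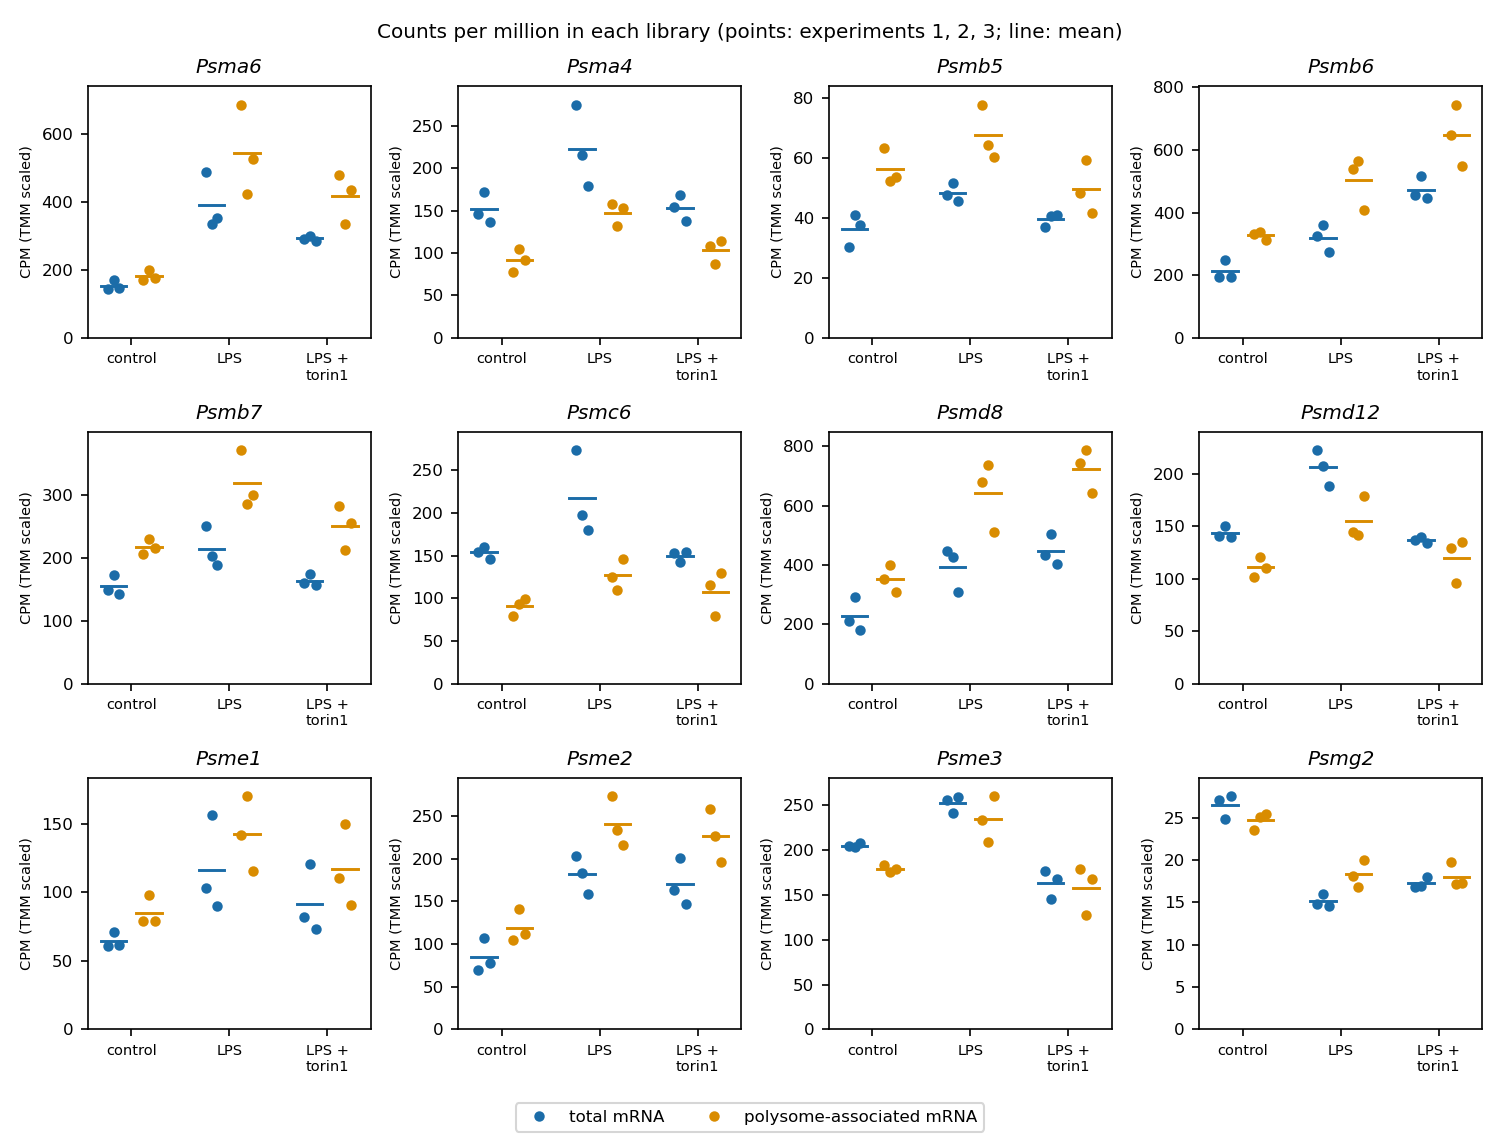
TMM-scaled CPM (vertical axis, from 0) in each library of total mRNA (blue) and polysome-associated mRNA (orange) for 12 genes, by treatment (horizontal axis). Points are experiments 1, 2 and 3 from left to right and lines are means. Most genes peak with LPS and return toward control with torin1, Psmb6 climbs from control to LPS to torin1, Psmd8 and Psme2 stay high, and Psmg2 falls with LPS.

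Proteasome genes are known to be turned on by the transcription factor Nfe2l1 through a short element in their promoters, the antioxidant response element (ARE). Its letters TGACNNNGC, and those of 5 other elements, were searched on both strands of the 250 bases ahead of each gene's start in RefSeq (GRCm38.p6). Promoters were found for 38 of the 46 genes. The ARE letters were in 5 of the 38 (13.2%), against 12.03% of the 8568 promoters of genes in the count table, so the members held them about as often as other genes. The 5 matches are shown with up to 10 bases on either side. Capitals mark the ARE letters, which lie on the other strand in Psmc6 and Psmd12.
Psmb5: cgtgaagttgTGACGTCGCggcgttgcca
Psmb6: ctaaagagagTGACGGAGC
Psmc6: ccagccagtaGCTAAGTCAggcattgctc
Psmd9: atctagccggTGACCCCGCccacttccaa
Psmd12: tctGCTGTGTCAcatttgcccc
They lie, in that order, at chr14:54618024-54618052 on the minus strand, chr11:70525338-70525356, chr14:45329587-45329615, chr5:123228149-123228177 and chr11:107479278-107479299 on the plus strand. The match begins 47 bases ahead of the RefSeq start in Psmb5 and 9 bases ahead in Psmb6. In total mRNA Psmb5, Psmc6 and Psmd12 were lower with torin1 than with LPS, Psmb6 was higher and Psmd9 did not pass. Whether the element has a part in any of these changes was not tested. Of the elements known from interferon responses, the GAS letters TTCNNNGAA were in 1 of the 38 promoters (2.63%, against 6.07% of those of count-table genes) and the ISRE was in 3 (7.90%, against 2.71%), those of Psmb3, Psmd4 and Psmd9. The CCAAT box (its 5 letters), the GC box (letters GGGCGG) and the E-box (letters CACGTG) were in 13, 21 and 3 of the 38 (34.2%, 55.3% and 7.90%), against 37.2%, 59.8% and 8.74% of those of count-table genes. A match is only a match of letters and was not tested as a binding site.

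In polysome-associated mRNA 26 members were lower with torin1 than with LPS and 1 was higher, against 18.2% lower and 20.3% higher of all genes. The class medians were −0.39 ± 0.05 for alpha subunits, −0.38 ± 0.06 for beta subunits, −0.28 ± 0.08 for ATPases, −0.21 ± 0.06 for other regulatory subunits, −0.19 ± 0.07 for PA28 and −0.31 ± 0.04 for assembly factors (SD, n = 3), and every one of them was negative in each experiment. In each of the 3 experiments 37 of the 46 members were lower, as were 35.6% of all genes. The calls of single genes were less firm. Without the first experiment 1 member passed with lower values and without the third 0 did, when 6.58% and 4.25% of all genes passed with lower values. Psme3, the 1 that passed without the first experiment, had 234, 209 and 260.2 CPM with LPS and 179, 127 and 168 CPM with torin1 (−0.57, standard error 0.160, edgeR adjusted p = 0.0397). Psmb6 was the 1 that was higher, with 537, 564 and 408 CPM with LPS and 646, 744 and 548 CPM with torin1, groups that overlapped (0.36, standard error 0.171, edgeR adjusted p = 0.186). It was higher in each experiment, but did not pass without the first or the third (edgeR adjusted p = 0.454 and 0.503).

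Set against control, the cells given LPS and torin1 had core and regulatory mRNAs near the starting level, PA28 above it and assembly factors below it. In total mRNA 11 members were higher than control and 9 were lower, against 33.1% and 33.6% of all genes. The class median was 0.01 ± 0.05 for alpha subunits, 0.07 ± 0.07 for beta subunits, −0.03 ± 0.09 for ATPases, 0.11 ± 0.08 for other regulatory subunits, 0.73 ± 0.13 for PA28 and −0.36 ± 0.08 for assembly factors (SD, n = 3). Psmb6 had the largest rise over control, 1.15 (standard error 0.139, edgeR adjusted p = 8.46e-05), followed by Psme2b (1.10), Psme2 (1.00), Psmd8 (0.98), Psma6 (0.94) and Psmd10 (0.78). All of these passed (edgeR adjusted p of at most 0.00257). Psme3 was lower than control (−0.33, standard error 0.0984, edgeR adjusted p = 0.0186), unlike the other PA28 genes. Psmc4, Psme4 and Psmd2 passed only with the experiment as a block, with changes of −0.14, −0.18 and 0.14 (edgeR adjusted p = 0.208, 0.135 and 0.170). Of the 7 assembly factors 5 were lower, namely Psmg1, Psmg2, Psmg3, Psmd5 and Psmd9, with log2 fold changes between −0.62 for Psmg2 and −0.28 for Psmd9. In polysome-associated mRNA 11 were higher and 8 were lower, against 28.5% and 29.7% of all genes. When experiments 1, 2 and 3 were left out in turn, 6, 19 and 7 were higher, against 21.0%, 33.1% and 19.6% of all genes, and 3, 11 and 2 were lower, against 19.4%, 34.7% and 17.4%. Psma6, Psmb6, Psmd8, Psmd10, Psme2 and Psme2b were among the higher genes in each of these fits.

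**Figure D4:**
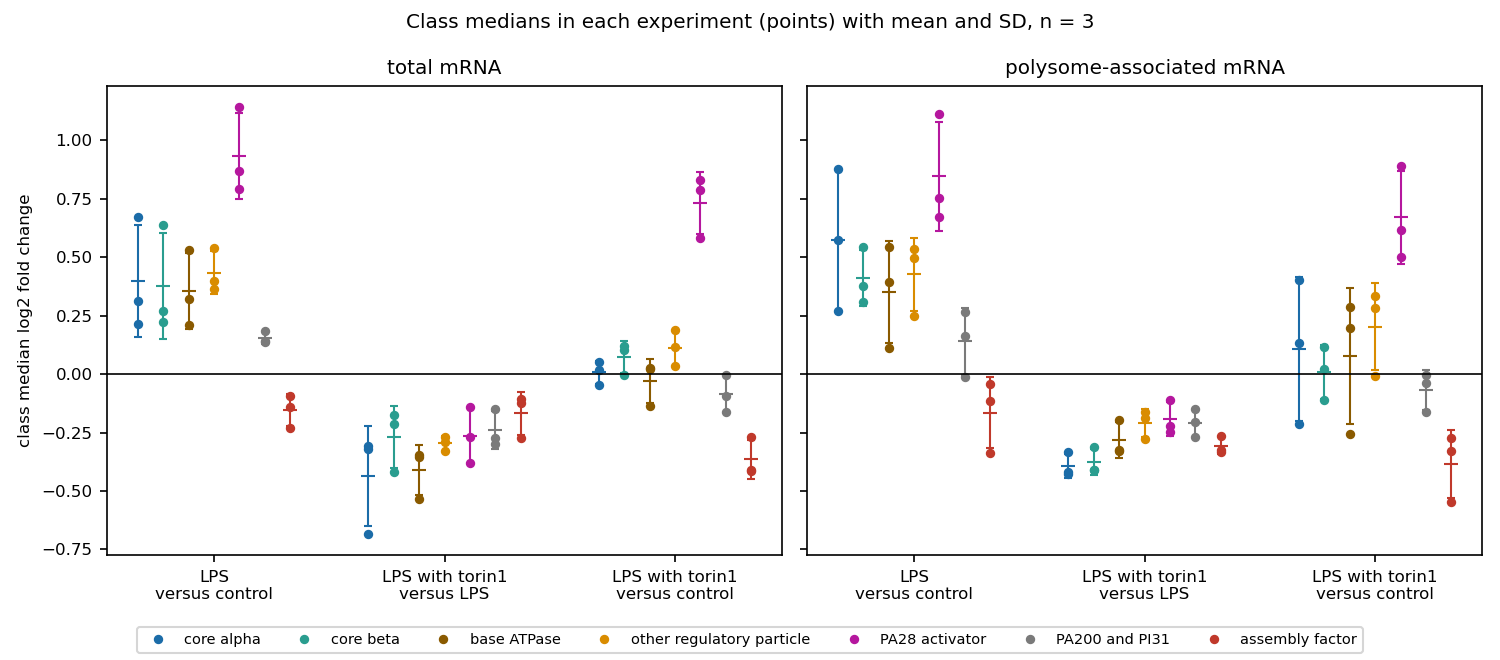
Median log2 fold change of each class (vertical axis) in the 3 comparisons (horizontal axis), for total mRNA (left) and polysome-associated mRNA (right). Points are the 3 experiments and bars are the mean and SD. PA28 is highest and assembly factors are lowest with LPS against control. All classes lie below 0 for LPS with torin1 against LPS, and PA28 alone stays well above 0 for LPS with torin1 against control.

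Translation efficiency, the change in polysome-associated mRNA relative to that in total mRNA, was tested as an interaction in one edgeR model of all 18 libraries, and a call also needed a fold of 1.2. That model did not pair the libraries of a lysate. In each of the 3 comparisons 0 members passed, as did 0% of all genes. The number of members with an unadjusted p under 0.05 was 1, 0 and 0, and over all genes it was 44, 110 and 145. DESeq2's Wald test called 1, 13 and 1 genes and edgeR with the lysate as a block 0, 25 and 3, with 0 members among them. Analysis of partial variance, which regresses polysome-associated on total mRNA, called 2, 7 and 2 genes and no member. Its unadjusted p was under 0.05 for 697, 660 and 1213 genes, of which 2, 3 and 1 were members. The changes in efficiency lay between −0.28 for Psmg4 and 0.38 for Psmg2 with LPS, and between −0.37 for Psmg4 and 0.28 for Psmc6 with torin1 against LPS. The standard errors ran from 0.131 to 0.413, and efficiency changes of that size were not detectable for single genes with this spread. In the edgeR interaction model Psmg2 was the member with an unadjusted p under 0.05. Its log2 fold change with LPS was −0.43 in polysome-associated and −0.81 in total mRNA. Between LPS with torin1 and control, Psmg4 and Psmd9 passed with lower efficiency when the second experiment was left out, and then 3.62% of all genes did.

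Within a treatment, beta subunit and assembly factor mRNAs were mostly enriched in heavy polysomes and ATPase mRNAs were not. Of the 46 members, 18 were higher in polysome-associated than in total mRNA in control cells and 9 were lower (edgeR, FDR 0.25 and a fold of 1.2), against 34.3% and 31.1% of all genes. With LPS the numbers were 20 and 7, against 32.3% and 29.1%, and with LPS and torin1 they were 18 and 4, against 26.1% and 26.3%. These fits did not pair the libraries of a lysate. With the lysate as a block the numbers of members were 18 and 9, 21 and 7, and 19 and 5, in the same order of treatments. The shares of all genes in the block fit are not given here. In control cells 6 of 7 beta subunits and 4 of 7 assembly factors were enriched and none of either was depleted, whereas 0 of 6 ATPases were enriched and 3 were depleted. The assembly factors Psmd9 (0.99, edgeR adjusted p = 0.00109) and Psmg3 (0.99, edgeR adjusted p = 0.000229) were the most enriched, and the ATPase Psmc1 the most depleted (−0.86, edgeR adjusted p = 0.000301). Psmb5, Psmb6 and Psmb7 were enriched in all 3 treatments, with values between 0.31 and 0.66. Psmc1 and Psmc6 were depleted in all 3, with values between −0.97 and −0.49. The enrichment went with a short coding sequence, with a Spearman correlation over the 46 genes of −0.52 in control, −0.59 in LPS-treated cells and −0.49 with torin1 added, and of −0.19, −0.17 and −0.14 with the length of all exons. The genes share libraries and are not independent replicates, so these are descriptions. Fractions of unlike composition are compared here, and TMM sets the typical gene near 0 (a median of 0.03 over all genes in control cells).

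**Figure D5:**
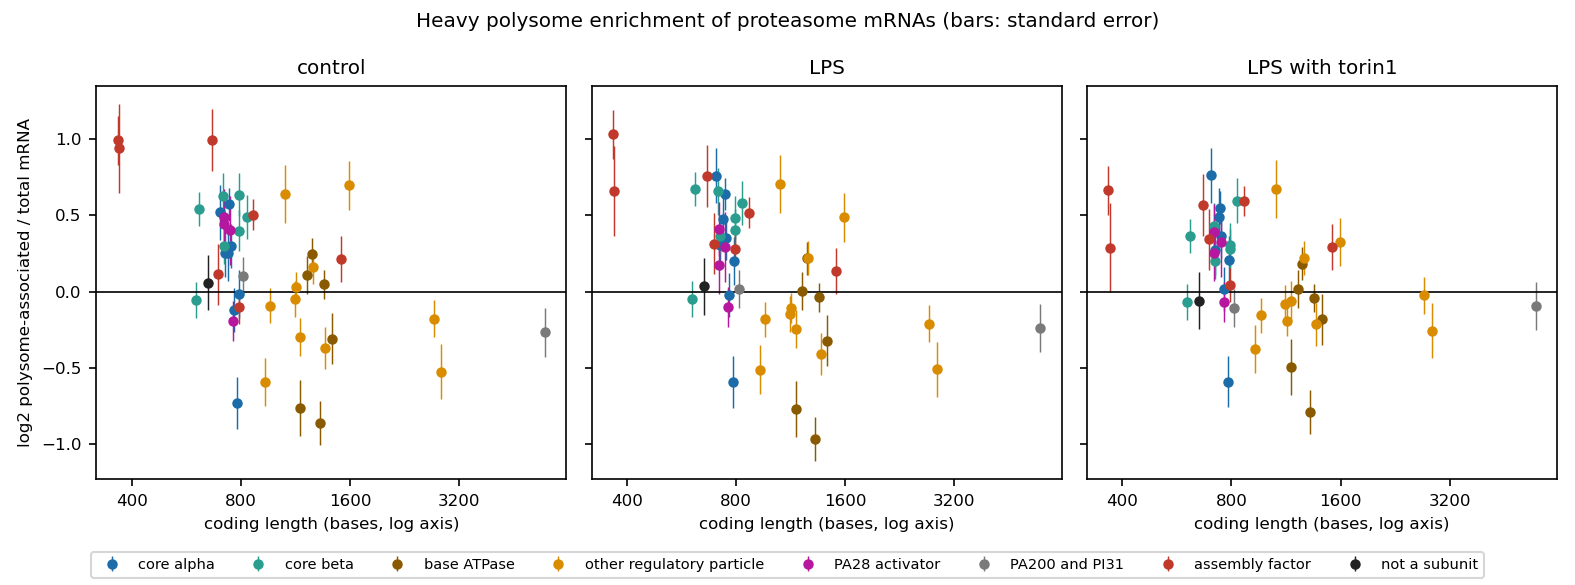
Log2 ratio of polysome-associated to total mRNA (vertical axis) against coding length in bases (horizontal log axis) for the 46 genes, with a panel for each treatment. Bars are standard errors and colours are classes. Most beta subunit and assembly factor mRNAs lie above 0, except Psmb2 in every panel and Psmg2 in control cells, and several longer ATPase and regulatory subunit mRNAs lie below 0.

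Of 32 further genes of the pathway that were listed by role, 31 were in the table. In total mRNA 20 were higher with LPS and 4 were lower, against 32.2% and 34.3% of all genes. With torin1 against LPS 3 were higher and 14 lower, against 27.3% and 26.4% of all genes. The counts by role below are to be read beside these shares. The immunoproteasome subunits, which replace the constitutive active sites, were all 3 higher with LPS, by 0.96 for Psmb8, 0.90 for Psmb9 and 1.15 for Psmb10 (edgeR adjusted p = 0.0159, 0.0436 and 0.00756). The corresponding values of Psme1 and Psme2 were 0.85 and 1.10. Pomp, the maturation factor of the core that the symbol rule does not take, changed by 0.64 with LPS (edgeR adjusted p = 0.00203) and by −0.39 with torin1 against LPS (edgeR adjusted p = 0.0412). Of the 5 listed genes that control proteasome genes, 3 rose and 1 fell with LPS, and 1 rose and 2 fell with torin1 against LPS. Nfe2l1 rose by 0.96 with LPS (edgeR adjusted p = 9.27e-05) and changed by −0.33 with torin1 (edgeR adjusted p = 0.0526). Nfe2l2 had 323.6, 225.4 and 219 CPM with LPS and 361.9, 335.4 and 346.6 CPM with LPS and torin1. Ddi2 had 132.8, 121.5 and 135.3 CPM in control and 116.3, 89.07 and 108.8 CPM with LPS. Of the 15 factors and shuttles that bind the proteasome, 7 rose and 3 fell with LPS, against 32.2% and 34.3% of all genes. With torin1 against LPS 8 of them fell and 1 rose, against 26.4% and 27.3%.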

How the data were processed

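Total and heavy-polysome mRNA of 9 lysates was sequenced. The deposited values are raw counts per gene, which the authors made by aligning reads to GRCm38 with Hisat2 and counting them with featureCounts, keeping protein-coding genes with no 0 in any library. Counts were normalised by TMM and tested with edgeR 4.0.16 in R 4.3.3 (quasi-likelihood test, Benjamini-Hochberg adjustment over all 11243 genes, FDR 0.25), with the 9 libraries of an RNA type in one model. CPM are TMM-scaled. Class medians used log2 CPM with a pseudocount of 0.5. Alternatives were DESeq2 1.42.0, RLE factors, edgeR's filter on low counts, an FDR of 0.05, each experiment left out, other sets of libraries, analysis of partial variance with limma 3.58.1, and the experiment (or lysate) as a block. Deviations of same-numbered libraries from their treatment means correlated in each of 9 pairs of total mRNA (0.127 to 0.540), which pairs them by the experiment number of the labels.

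Values in every library are given for the active-site subunits, Psme1, Psme2 and, in each class, the gene with the largest absolute change with LPS and with torin1 against LPS in total mRNA among those past the FDR with one direction in each of the 3 experiments. Other genes were named after their values were seen. All 6 promoter elements searched are given. Members and lists were chosen with earlier results of these data known. In simulated counts with 200 genes changed by 1 on the log2 scale, edgeR recovered 90.5% in total mRNA, 91.5% in polysome-associated mRNA and 67.5% in the interaction test. The simulated counts had no effect of the experiment. Their changes were larger than the members' median of 0.39 with LPS, so recovery of changes of the members' size was not measured. Genes were matched to GENCODE vM21 of GRCm38, from which lengths and overlaps came. FPKM used the union of all exons, which understates genes with long rare isoforms. No pair of replicate libraries agreed within sampling noise (the smallest chi-squared statistic per degree of freedom was 26.3). The authors' anota2seq was not run.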

Additional observations from a re-analysis of the deposited data

How the results depend on the processing

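Of the alternative counts of members, 201 were within 1.5 times the value given and 27 were outside it. The 201 include the efficiency counts, which were 0 in nearly all fits. For the genes with values in every library, 461 repeats kept direction and side of the threshold. In 27 repeats a call was lost, in 13 one was gained and in 3 the sign turned. At an FDR of 0.05, LPS against control had 2 members lower in total mRNA and 16 higher in polysome-associated mRNA. LPS with torin1 against LPS then had 1 higher in total mRNA, and 0 higher and 4 lower in polysome-associated mRNA. LPS with torin1 against control had 6 higher and 4 lower in polysome-associated mRNA. The shares of all genes were 24%, 15.9%, 15.6%, 8.10%, 5.75%, 18.3% and 16.8%, in that order. At that FDR, 9 members were enriched in and 2 depleted from polysomes with LPS and torin1, against 15.1% and 15.8%. The 2 members higher with torin1 than with LPS in total mRNA became 1 with DESeq2, with only the compared treatments or with all 18 libraries in one model. With experiments left out in turn, counts ran from 1 to 2 there and from 15 to 36 (higher with LPS, polysome-associated). They ran from 0 to 1 (higher) and from 0 to 27 (lower with torin1 than with LPS, polysome-associated). For LPS with torin1 against control in polysome-associated mRNA they ran from 6 to 19 (higher) and from 2 to 11 (lower). Members of lower efficiency in that comparison ran from 0 to 2, and those enriched in polysomes with LPS and torin1 from 11 to 21. With experiments left out, the log2 fold change of Psmg1 with LPS in total mRNA ran from −0.044 to 0.11, that of Psme2 with torin1 against LPS in total mRNA from −0.22 to 0.019 and that of Psmg2 with torin1 against LPS in polysome-associated mRNA from −0.10 to 0.094. Each turned in sign once and none was past the threshold. RLE factors moved the median of Psme4 and Psmf1 with LPS in total mRNA to 0.18.

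With the replicate block, members higher with LPS in total mRNA numbered 37 (35.3% of all genes) and members lower with torin1 than with LPS numbered 38 in total (31.4%) and 31 in polysome-associated mRNA (24.3%). In polysome-associated mRNA 11 rather than 8 members were lower with LPS and torin1 than in control (34.7% of all genes). The added calls were Psmc4, Psmd5 and Psme3. Other calls that the block changed in total mRNA are given beside the results. In polysome-associated mRNA the same-numbered libraries correlated between −0.141 and 0.843, and 7 of 9 correlated best with their own number, which is a hint from the data and weaker than in total mRNA. The cause of these shifts was not tested. With 3 experiments, an exact paired test cannot give a two-sided p below 0.25, and small changes of single genes in polysome-associated mRNA are the least certain values here.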
